A study of Mus musculus with 4 samples.

Results

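Gene expression in the mouse dental follicle was compared with that in the dental papilla at the stage labelled PN2. The comparison rests on 1 of the 4 arrays of the series, the one whose title pairs DF PN2 with P PN2, where DF is the dental follicle and P the dental papilla. Its members are the probes to which the platform annotation gives a gene symbol, which are 25962 of the 30146 probes and stand for 16039 genes. Per the labels, total RNA of DF PN2 carried the dye Cy5 and that of P PN2 the dye Cy3, and the other 3 arrays pair the same tissues at the stage labelled E17 and the stages within each tissue. No strain, sex, tooth or number of animals was stated in the labels used here, nor whether tissue of several animals was pooled. The sample description names a whole embryo and the growth protocol a culture of embryonic stem cells, so the tissue was taken from the title. The signals of DF PN2 and of P PN2 were each identical, in 100% of probes, to those in the second file that holds that tissue and stage, for P PN2 under the other dye. Each side of the comparison is therefore a single hybridisation, no p-value can be given, and the number of arrays limits the precision of every value below.

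The dental follicle is the sac of loose connective tissue around the tooth germ. It is known to give rise to the periodontal ligament, the cementum and part of the alveolar bone, and to recruit the osteoclasts that clear a path for tooth eruption. The dental papilla is the condensed mesenchyme that the epithelial crown encloses. It signals to the enamel epithelium through growth factors of the BMP, FGF and Wnt families, its outermost cells become the odontoblasts that deposit dentin, and its core becomes the pulp.

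After quantile normalisation, which gives the 4 columns of tissue and stage the same distribution of signals, 14238 genes had a normalised signal of at least 100 in 1 column or more and were compared. A log2 ratio is the log2 signal of the follicle minus that of the papilla, averaged over the probes of a gene, so that positive values are higher in the follicle. A gene was called past a log2 ratio of 1 or -1, a 2-fold difference. At PN2, 1829 genes (12.8%) were higher and 1908 (13.4%) lower in the follicle. Large differences lay more often on the follicle side. Past 8-fold, 170 genes were higher and 89 lower, and past 32-fold, 33 were higher and 6 lower. A gene that is dim in every column was left out by the signal limit, so the shares below describe measured genes and not whole families. A gene that reached the limit in 1 column alone was kept through that column, so its call is not independent of the limit. The lower PN2 signal lay below the 5th percentile of the array (37.9) in 360 of the called genes, and the size of their ratios is less certain. With dim signals raised to that level, 1800 genes were higher and 1862 lower. For genes named below, the PN2 ratio then was 4.13 for Higd1b, 3.86 for Pappa2, 3.14 for Kcna2 and 3.08 for Cd79a. It was 2.99 for Mgp, 2.39 for Col28a1 and -2.75 for Wnt10a, and others are given in place.

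**Figure D1:**
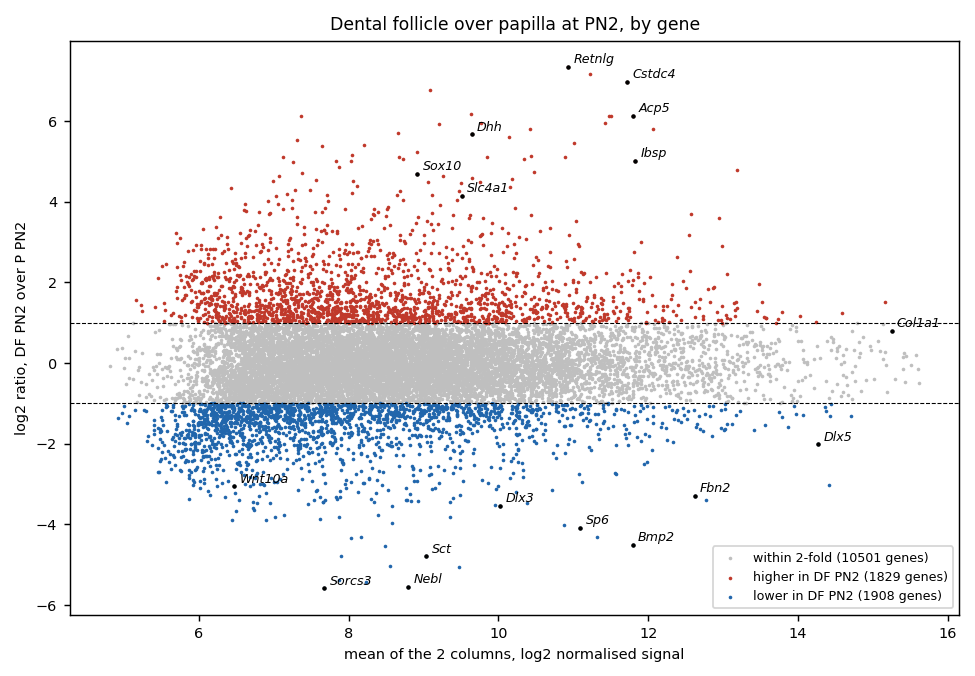
Log2 ratio of DF PN2 over P PN2 (vertical axis) against the mean log2 normalised signal of the 2 columns (horizontal axis), 1 point per gene for the 14238 genes compared; dashed lines mark 2-fold. Red points are the 1829 genes higher and blue points the 1908 genes lower in the follicle, and the named genes show that differences past 4 on the log2 scale occur on both sides, reaching 7.34 for Retnlg and -5.59 for Sorcs3. The Sorcs3 follicle signal is under the 5th percentile, and with it raised to that level the ratio was -5.22.

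Where several probes read 1 gene, their disagreement gives a technical error within the hybridisation. The SD was 0.77 (log2 ratio, 6749 genes), and it was 0.88 for genes with a mean PN2 signal under 100 and 0.66 for those above 1000. Of 1134 called genes with several probes, 1073 had every probe on the same side of 0 and 530 had every probe past 2-fold. Another 2603 called genes have 1 probe. Such genes meet a demand on every probe by their call alone, also in the list counts by every probe below. Probes of the same gene lay past 2-fold in opposite directions in 165 genes. The brightest of these was Itgb3, an integrin subunit of osteoclasts and platelets, whose probes stood at -1.29 and 5.34, and the next were Stx2, with -1.26 and 1.07, and Eps15l1, with -1.74 and 1.02. The scale between columns matters for the balance of calls. Of called genes, 48.9% were higher, and 63.3% without normalisation, where the median over all compared genes was 0.21 in place of -0.07. In the authors' deposited ratios these values were 57.4% and 0.12. Of 12 housekeeping genes, 2 were higher (B2m 1.29, Gusb 1.01), neither by every probe, and 0 lower, with Hprt at 0.35, Rpl13a at -0.15 and Gapdh at -0.79. Their median of -0.08 became 0.30 without normalisation and 0.05 with median centring, and their mean was 0.05. Genes of the sex chromosomes, looked up after their values were seen, also differed between the columns. Xist, which silences an X chromosome in female cells, had a signal of 2890.4 in DF PN2, 827 in P PN2, 19.7 in DF E17 and 3846 in P E17. The E17 follicle signal is under the 5th percentile, so the E17 log2 ratio is only bounded, at -6.66 or lower. The Y-linked Ssty1 had 149 in DF PN2, 1274 in P PN2, 1222 in DF E17 and 734 in P E17. Its signal was thus lowest in DF PN2 and not in P E17, where Xist was highest. Sex was not given for the animals, and its part in other differences was not tested.

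Genes of the follicle fibroblast list lay mostly on the follicle side, and papilla and odontogenic regulators mostly on the papilla side. The lists were chosen with earlier results of these data known, so this describes the columns and is no independent check of the tissues. Of 18 genes in the list of follicle fibroblasts, 11 were higher and 1 lower (median 1.18). Of 18 papilla and odontogenic regulators, 3 were higher and 11 lower (median -1.94). Over all genes compared the shares were the 12.8% and 13.4% given above, and every list count below stands beside the same shares. A list with counts near them is not set apart from the genes as a whole. In tissue RNA, fewer cells of a type and less RNA per cell cannot be told apart, and this holds for each cell type below.

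Genes of neutrophils held the 2 highest ratios of all. In the list of neutrophil granule and receptor genes, 9 of 10 were higher and 0 lower, and the median log2 ratio was 5.05. Retnlg, a secreted resistin-like protein of granulocytes, had a normalised signal of 24852 in DF PN2, 153 in P PN2, 155 in DF E17 and 131 in P E17. The PN2 follicle stood far above the 3 other columns. S100a9, a subunit of the calcium-binding antimicrobial protein calprotectin, followed the same pattern with 28419.8 in DF PN2, 199 in P PN2, 92.8 in DF E17 and 75.8 in P E17. Ngp, a protein of neutrophil granules, had 6759 in DF PN2, 93.1 in P PN2, 68.9 in DF E17 and 48.8 in P E17. Lactoferrin (Ltf), an iron-binding protein of secondary granules, had 7823 in DF PN2, 162 in P PN2, 59.2 in DF E17 and 102 in P E17, and its 2 probes gave 5.46 and 5.73. In each of these 4 genes the 3 other columns lay under 200. The neutrophil collagenase Mmp8 had a log2 ratio of 4.57 and the siderophore-binding lipocalin Lcn2 one of 5.52. For Lcn2 the papilla signal of 23.3 is under the 5th percentile, and with it raised to that level the ratio was 4.82. Ratios were smaller for Itgb2l (2.02), the chemokine receptor gene Cxcr2 (1.98) and Chil3 (1.03), and that of the histone-citrullinating enzyme gene Padi4 was 0.71. At E17, 0 of the 10 genes were higher and 1 lower in the follicle, against 10.5% and 10.1% of all genes. That gene was Chil3, with a ratio of -1.30.

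The 6 granule genes with the highest ratios are shown by the sequence upstream of their RefSeq start site (GRCm38.p6, 250 bases, 5′ to 3′ on the strand of the gene), because each holds the same short motif. Capitals mark TTGCNNAA, a form of the site bound by the C/EBP family of myeloid transcription factors, searched on both strands, so that its reverse complement is marked as well. The window holds it in 6 of 10 promoters of the neutrophil list, which are those of these 6 genes, and in 9.55% of 27025 promoters of the same length. In the stefin and cystatin list, whose measured genes had ratios from 1.18 to 6.98 (median 5.80), 2 of 9 promoters hold it. A match is a description of the letters and not a site of binding, and the motif was chosen with the values known. The regions are chr3:90695722-90695971 for S100a9 (minus strand), chr9:111019042-111019291 for Ltf (plus strand), chr2:32387740-32387989 for Lcn2 (minus strand), chr9:110419558-110419807 for Ngp (plus strand), chr16:48872358-48872607 for Retnlg (plus strand) and chr9:7558179-7558428 for Mmp8 (plus strand). Ngp has 2 matches and each of the others 1.
S100a9: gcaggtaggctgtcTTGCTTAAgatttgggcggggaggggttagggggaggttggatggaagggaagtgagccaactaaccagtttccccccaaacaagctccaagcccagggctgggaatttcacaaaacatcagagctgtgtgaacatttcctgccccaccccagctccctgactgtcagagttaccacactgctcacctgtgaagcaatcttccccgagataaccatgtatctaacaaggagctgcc
Ltf: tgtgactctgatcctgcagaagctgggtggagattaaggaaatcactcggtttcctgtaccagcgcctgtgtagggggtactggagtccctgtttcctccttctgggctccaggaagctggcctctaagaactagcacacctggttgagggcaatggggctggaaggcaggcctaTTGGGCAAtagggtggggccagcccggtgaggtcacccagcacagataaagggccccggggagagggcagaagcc
Lcn2: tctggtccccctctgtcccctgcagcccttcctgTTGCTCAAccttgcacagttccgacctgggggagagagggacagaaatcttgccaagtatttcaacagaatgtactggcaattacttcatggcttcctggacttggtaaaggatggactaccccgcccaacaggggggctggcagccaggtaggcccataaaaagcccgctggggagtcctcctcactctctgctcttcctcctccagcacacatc
Ngp: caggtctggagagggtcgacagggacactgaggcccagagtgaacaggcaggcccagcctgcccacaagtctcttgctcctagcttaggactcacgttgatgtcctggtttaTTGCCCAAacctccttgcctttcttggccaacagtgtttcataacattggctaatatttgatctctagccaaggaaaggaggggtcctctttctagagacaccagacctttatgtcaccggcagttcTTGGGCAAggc
Retnlg: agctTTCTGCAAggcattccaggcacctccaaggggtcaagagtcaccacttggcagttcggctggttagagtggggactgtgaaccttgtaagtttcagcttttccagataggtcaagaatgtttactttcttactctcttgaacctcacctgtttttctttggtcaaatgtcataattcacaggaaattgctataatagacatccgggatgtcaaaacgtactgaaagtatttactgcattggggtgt
Mmp8: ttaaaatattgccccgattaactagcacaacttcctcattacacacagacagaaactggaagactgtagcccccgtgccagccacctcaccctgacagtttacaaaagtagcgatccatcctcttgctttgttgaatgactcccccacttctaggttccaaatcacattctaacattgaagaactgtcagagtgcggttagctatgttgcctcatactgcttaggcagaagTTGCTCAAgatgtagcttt

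Stefins formed the other group with ratios of this size. They are small inhibitors of cysteine cathepsins, and 7 of them on the array (Csta1, Cstdc4, Csta2, Stfa1, Cstdc5, Stfa2 and Stfa3) lie on chromosome 16 within a run of 12 neighbouring protein-coding genes. Cstdc4 had the highest signal, with 37890.5 in DF PN2, 301 in P PN2, 199 in DF E17 and 229 in P E17. The ratio was 6.76 for Csta2, 6.12 for Stfa1, 5.96 for Cstdc5 and 5.80 for Stfa3, and it was 5.12 for Stfa2 and 4.50 for Csta1. All 7 lay between -0.91 and 0.33 at E17. Copies in this cluster are alike in sequence, each gene but Csta1 is measured by 1 probe, and how far the probes bind the transcripts of neighbouring copies was not tested. The more distant relatives Cstb (1.68) and Cst3 (1.18), which most cell types express, were higher by smaller ratios. Of 11 stefin and cystatin genes on the array, 9 reached the signal limit. All 9 were higher, and at E17 1 of 9 was. Csta2 reached the limit in DF PN2 alone, so it counts among the 9 only through its high signal there.

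Genes of other blood lineages accompanied them. Of 12 erythroid genes, 9 were higher and 0 lower (median 2.64), against 1 higher and 2 lower at E17. Hemgn, a nuclear protein of blood precursors, had 1263 in DF PN2 and 43.6 in P PN2, a ratio of 4.86. Ermap, an erythroid membrane protein, had 2014 in DF PN2 and 153 in P PN2, and the blood group gene Rhd had 2810.3 in DF PN2 and 221 in P PN2. Alas2, the first enzyme of haem synthesis in red cell precursors, stood at 2.16, and Hbb-y, a globin of the embryo, at 0.39. Megakaryocyte and platelet genes had 4 of 8 higher and 1 lower. They were led by platelet factor 4 (Pf4), with 2408 in DF PN2 and 188 in P PN2, and by the transcription factor gene Nfe2 (2.75), while the collagen receptor gene Gp6 stood at -1.20. In the B cell precursor list 4 of 10 were higher and 2 lower. Higher were the antigen receptor component Cd79a (3.29) and the surrogate light chain genes Vpreb1 (2.60), Igll1 (2.11) and Vpreb3 (1.57), and lower were Dntt (-1.30) and Cd79b (-1.43). Cd79b was thus on the other side from its partner Cd79a, and at a higher signal, 1088 in DF PN2 and 2941 in P PN2. Of granulocyte precursor genes, 2 of 4 were higher, haptoglobin (Hp, 3.83) and myeloperoxidase (Mpo, 2.55). Of 6 mast cell, basophil and eosinophil genes, 3 were higher and 1 lower, against 2 and 0 at E17. The basophil protease gene Mcpt8 had a ratio of 2.81 at PN2 and -0.99 at E17. Hdc, the histamine-forming enzyme gene, had 1.78 and 1.78, and the mast cell chymase gene Cma1 1.35 and 1.99. The receptor gene Kit lay on the papilla side (-1.52), and Epx stood at -0.94. Of 7 T and NK cell genes on the array, 3 reached the signal limit, and 1 of them, Cd3d (1.73), was higher.

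Osteoclast genes were higher in the follicle at both stages. Of 15 genes, 13 were higher and 0 lower at PN2 (median 2.73), and 13 and 0 at E17 (median 2.59). Tartrate-resistant acid phosphatase (Acp5), the classical enzyme marker of osteoclasts, had 29754 in DF PN2, 424 in P PN2, 22140.2 in DF E17 and 624 in P E17. Cathepsin K (Ctsk), which digests bone collagen, had 32022 in DF PN2, 572 in P PN2, 28886 in DF E17 and 1104 in P E17. Both were far above the papilla at both stages. The receptor gene Oscar had a ratio of 3.82 at PN2 and 2.29 at E17, and the fusion protein gene Dcstamp 3.47 and 3.76. Tcirg1, a subunit of the proton pump of the ruffled border, had 5505 in DF PN2 and 2148 in P PN2, a ratio of 1.36, so its papilla signal was not low. The genes within 2-fold were carbonic anhydrase 2 (Car2, 0.69) and the chloride channel gene Clcn7 (0.01). Every probe was past 2-fold for 12 of the 13, and Itgb3 was the exception. For genes with 1 probe, among them Acp5, Ctsk, Oscar, Dcstamp and Tcirg1, this only repeats the call and shows no agreement between probes.

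The lysosomal machinery that osteoclasts and macrophages share was higher as a group. Of 34 cathepsin, lysosome and V-ATPase genes, 23 were higher and 0 lower (median 1.38), and 22 and 0 at E17. Ctsc, which activates granule proteases, had 1824 in DF PN2 and 166 in P PN2. Among proton pump subunits, the osteoclast-enriched Atp6v0d2 stood at 3.31 (2.47 with its papilla signal raised to the 5th percentile) and Atp6v1b2 at 3.06, while Atp6v0a1 (-0.02) and Atp6v0a2 (0.04) were near 0. In the macrophage and pan-leukocyte list, 15 of 18 were higher and 0 lower (median 2.45). Laptm5, a lysosomal protein of blood cells, had 17929.6 in DF PN2 and 1972 in P PN2, and the leukocyte phosphatase gene Ptprc stood at 3.30. Not all macrophage markers took part: Aif1 was at 0.48, Adgre1 at 0.28 and the scavenger receptor gene Cd163 at -0.72. Of complement genes, 8 of 13 were higher and 0 lower, from C1qc (3.38) and the fibroblast-made C1ra (2.59) to C1s1 (1.24). Of 25 chemokine and receptor genes, 8 were higher and 2 lower. Ccl9, a chemokine that draws osteoclast precursors, had 7351 in DF PN2, 277 in P PN2, 10429.9 in DF E17 and 302 in P E17. Its relative Ccl6 stood at 3.22 at PN2 and -0.15 at E17, the stromal chemokine gene Cxcl12 at 3.34 and its receptor gene Cxcr4 at 1.46, beside -0.25 at E17.

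**Figure D2:**
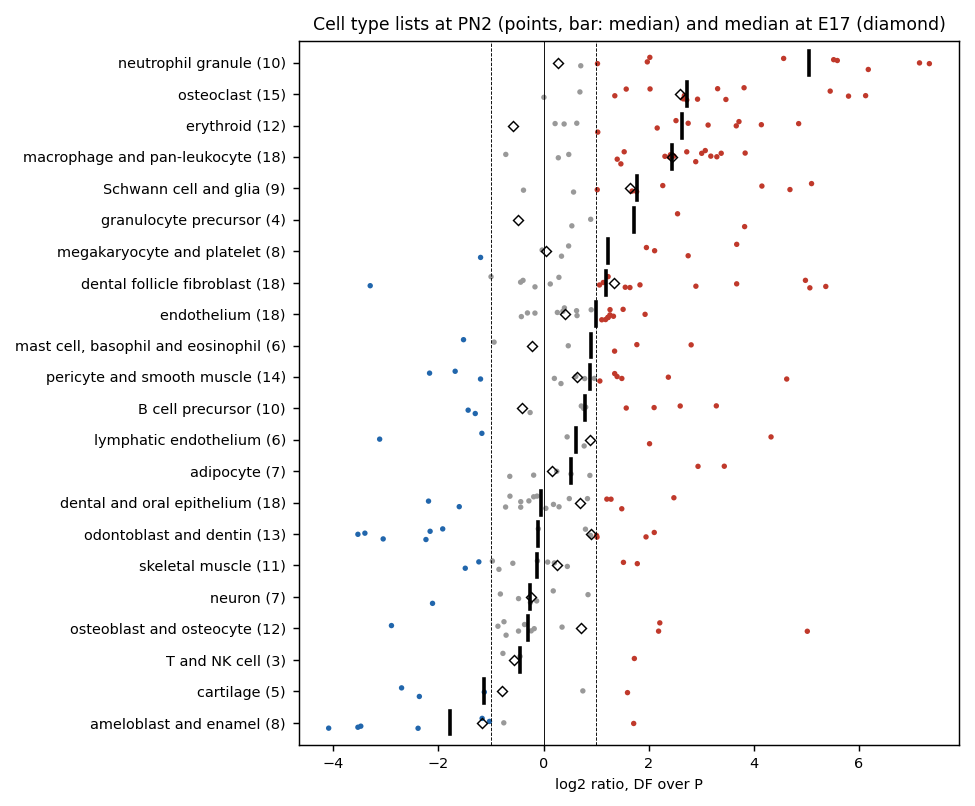
Log2 ratios of DF over P at PN2 for every measured gene of the cell type lists (points; red higher and blue lower past 2-fold, grey within), with the list median at PN2 (bar) and at E17 (open diamond); the number of genes measured stands beside each name. Bars of the neutrophil and erythroid lists stand at 5.05 and 2.64 while their diamonds lie at 0.27 and -0.59, whereas bar and diamond nearly coincide for osteoclasts (2.73 and 2.59).

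Genes for matrix and growth factor binding were divided between the tissues, with more on the follicle side. Bmp3, a member of the BMP family that opposes bone formation, had 1286 in DF PN2, 31.0 in P PN2, 967 in DF E17 and 112 in P E17. Its ratio was 5.37 at PN2 (5.08 with its papilla signal raised to the 5th percentile) and 3.11 at E17. The signal of Sfrp4, a secreted inhibitor of Wnt ligands, was 7489.7 in DF PN2, 223 in P PN2, 3629 in DF E17 and 197 in P E17. Osteoglycin (Ogn), a small leucine-rich proteoglycan, had 22098 in DF PN2 and 2959 in P PN2, and thrombospondin 2 (Thbs2) had 4940.4 in DF PN2 and 386 in P PN2. Fibrillin 2 (Fbn2), a microfibril protein of developing tissue, was the fibroblast gene called on the papilla side, with 2004 in DF PN2, 19718 in P PN2, 3374 in DF E17 and 10036 in P E17. Lumican (Lum) missed that call by little, at -0.999, with 1428 in DF PN2 and 2854 in P PN2. Foxf1 (-0.44) and Scx (-0.39) also had the higher signal in the papilla, within 2-fold. Decorin (Dcn), a collagen-binding proteoglycan, had a ratio of -0.16 at PN2 where it had 2.97 at E17.

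Collagens were divided, with 13 of 37 higher, 8 of these by every probe, and 8 lower (median 0.73). Among those of the follicle were Col13a1 (3.23), a transmembrane collagen, and Col28a1 (2.83), which is known from peripheral nerve. Col5a2, a component of collagen I fibrils, had 9179 in DF PN2 and 2865 in P PN2. Of basement membrane chains, Col4a1 (1.11) and Col4a2 (1.03) were higher while Col4a6 (-2.23) was lower. On the papilla side were the transmembrane Col23a1, with 91.7 in DF PN2 and 1238 in P PN2, and Col7a1, an anchoring fibril collagen gene, with 832 in DF PN2 and 5637 in P PN2. So was the fibrillar Col24a1 (-2.54), which had 0.46 at E17. Col1a1, the main chain of bone and dentin collagen, had 51327 in DF PN2, 29511 in P PN2, 51327 in DF E17 and 6362 in P E17. It was thus high in both tissues at PN2, and the ratio was 0.80 at PN2 beside 3.01 at E17. Quantile normalisation gives equal ranks equal values, so the equal follicle values do not show equal measured signals. Whether this signal was near its upper limit was not tested. Elastic fibre, matricellular and proteoglycan genes had 17 of 47 higher and 9 lower, against 25 and 7 at E17. Thbs4 (4.16), Matn2 (3.52) and matrix Gla protein (Mgp, 3.15), an inhibitor of mineralisation, were among the highest. Elastin (Eln) had 3303 in DF PN2, 425 in P PN2, 15703 in DF E17 and 437 in P E17. The papilla side held osteomodulin (Omd, -2.89), aggrecan (Acan, -2.70), versican (Vcan, -2.01) and Smoc2 (-1.57), and of the cross-linking enzymes Lox (1.84), Loxl1 (1.62), Loxl2 (1.41) and Loxl4 (1.19) were higher in the follicle.

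Of 38 matrix protease and inhibitor genes, 17 were higher and 5 lower. The collagenase gene Mmp13, expressed by osteoblasts and hypertrophic chondrocytes, had 4646 in DF PN2, 75.7 in P PN2, 2754 in DF E17 and 53.2 in P E17. Htra1, a secreted serine protease, had a ratio of 4.40, fibroblast activation protein (Fap) 3.43 and the inhibitor gene Timp3 2.75. Timp2, the group's brightest gene in the PN2 follicle, had 50244 in DF PN2 and 25668 in P PN2, and the lower genes were Adamts19 (-2.46), the procollagen-processing Adamts3 (-2.08), Mmp3 (-1.33), Adamts8 (-1.33) and Adamts16 (-1.04, or -0.93 with its follicle signal raised to the 5th percentile, which ends the call). Of 28 genes for collagen folding and secretion, 2 were higher and 1 lower. P4ha3 (2.98, 1.95 with its papilla signal raised to the 5th percentile) and P4ha2 (-1.77), which both hydroxylate proline in collagen, lay on opposite sides. The collagen chaperone gene Serpinh1 had 46087 in DF PN2 and 47519.9 in P PN2.

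Of 16 genes of the insulin-like growth factor system, 11 were higher and 3 lower. Igfbp5, a secreted binding protein that holds these factors in the matrix, had 24264 in DF PN2, 346 in P PN2, 30739.5 in DF E17 and 153 in P E17. Igf2, the fetal growth factor, had 22029 in DF PN2, 1695 in P PN2, 32022 in DF E17 and 1995 in P E17, and Igf1 had 4684 in DF PN2, 484 in P PN2, 5336 in DF E17 and 163 in P E17. The follicle was above the papilla in both stages for all 3. Igfbp7 had a ratio of 2.06 at PN2 and 0.30 at E17. Pappa2 (4.14) and Pappa (-2.29), which encode proteases that cleave binding proteins, lay on opposite sides, as did Igfbp3 (2.23) and Igfbp4 (-1.44). Imprinted genes had 6 of 16 higher and 2 lower at PN2, against 12 and 0 at E17. Slc38a4 (1.81), Dlk1 (1.77) and H19 (1.31) were higher at PN2, whereas the cell cycle inhibitor gene Cdkn1c had 0.50 at PN2 and 3.73 at E17, and Plagl1 -0.20 and 3.16.

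Of 9 Schwann cell and glial genes, 7 were higher and 0 lower (median 1.77). Sox10, the transcription factor that defines the lineage, had 2461 in DF PN2, 95.3 in P PN2, 1258 in DF E17 and 88.3 in P E17. Its target Erbb3, the neuregulin receptor, had 1692 in DF PN2 and 94.8 in P PN2, and desert hedgehog (Dhh), a signal that Schwann cells send to the nerve sheath, had 5719 in DF PN2, 112 in P PN2, 4373 in DF E17 and 109 in P E17. The 3 probes of myelin basic protein (Mbp) ranged from 2.15 to 7.69 around their mean of 5.10. Ednrb (5.10), Mal (5.24) and Plekhb1 (5.14) were also among the 25 highest genes. Neuronal genes did not follow: of 7 measured, 0 were higher and 1, Tubb3 (-2.11), was lower. Endothelial genes had 9 of 18 higher and 0 lower at PN2, against 4 and 0 at E17. Sox18 (1.93), Cdh5 (1.52) and Sox17 (1.33) led them, with Pecam1 at 0.40 and Vwf at -0.31, and 5 of the 9 had every probe past 2-fold. Tek, the angiopoietin receptor gene, stood at 1.27 by the mean of its 2 probes but at -0.10 by the brighter one. Of pericyte and smooth muscle genes, 6 of 14 were higher and 3 lower: Higd1b had 666 in DF PN2 and 26.9 in P PN2 and the PDGF receptor gene Pdgfrb 1824 in DF PN2 and 351 in P PN2, while the potassium channel gene Kcnj8 (-2.17) and the contractile genes Cnn1 (-1.68) and Mylk (-1.20, or -0.98 with dim probes raised to the 5th percentile) lay on the papilla side. The list of integrins and basement membrane had 19 of 35 genes higher and 3 lower. Nidogen 1 (Nid1), which links laminin to collagen IV, had 5964 in DF PN2 and 771 in P PN2, and Itgb5 (3.63), Itga11 (2.36) and Lamb1 (2.31) were higher, while Itga4 (-1.71), Itga10 (-1.41) and Lamc3 (-1.33) were lower. The list of lymphatic endothelium had 2 of 6 higher and 2 lower, with the defining factor gene Prox1 at -1.17. Of 7 adipocyte genes, 2 were higher and 0 lower. Fabp4, a fatty acid carrier, had 1921 in DF PN2 and 177 in P PN2, and Car3 a ratio of 2.94, while Adipoq (0.88), Plin4 (-0.19) and Pparg (-0.64), the defining transcription factor, lay within 2-fold.

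The genes farthest on the papilla side included transcription factors, growth factors and proteins known from nerve cells. Nebl, which encodes actin-binding nebulette, had 64.9 in DF PN2, 3031 in P PN2, 60.2 in DF E17 and 1653 in P E17. Sall3, a zinc finger transcription factor, had 45.9 in DF PN2, 1962 in P PN2, 67.3 in DF E17 and 2482 in P E17. Both were under 100 in the follicle and above 1000 in the papilla at both stages. Secretin (Sct), the gut peptide hormone, had 100.1 in DF PN2, 2764 in P PN2, 109.6 in DF E17 and 365 in P E17, and Dpf3, a subunit of a chromatin remodelling complex, had 45.4 in DF PN2, 1256 in P PN2, 78.4 in DF E17 and 139 in P E17. For these genes the PN2 papilla was the only column with a signal past 1000. The nucleosome-binding Hmgn3 (-4.30) and the chemokine gene Ccl19 (-4.01) followed among the brightest, and Lrrc15 (-4.34), Nmnat2 (-3.95), Dnm3 (-3.82), Fbln7 (-3.52), Olfml1 (-3.46) and Grik4 (-3.44) among the 25 lowest ratios. The 25 also hold Tmem132e (-3.82), Slc35f2 (-3.45), Plpp4 (-3.45) and Btbd35f1 (-3.54). Among the bright genes, Jazf1 (-2.94), Dlx6os2 (-3.14), the retinoic acid-binding Crabp1 (-2.51), Zfp473 (-2.45) and Speer4d (-2.74) were lower in the follicle. Speer4d has near-identical copies, so its probe may report several.

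The odontogenic regulators lay mainly on the papilla side at both stages, with 13 of 18 lower in the follicle at E17. Dlx5, a homeobox gene of the jaw and tooth, had 9852 in DF PN2, 39696 in P PN2, 6426 in DF E17 and 36438 in P E17. Dlx3 had 307 in DF PN2, 3548 in P PN2, 217 in DF E17 and 4925 in P E17, Dlx6 511 in DF PN2 and 3233 in P PN2 and Dlx1 291 in DF PN2 and 1775 in P PN2, while Dlx2 had a ratio of -0.07 at PN2 beside -2.33 at E17. Msx2, a homeobox target of BMP signals, had 1177 in DF PN2, 7722 in P PN2, 235 in DF E17 and 5355 in P E17. Its follicle signal at PN2 was above that at E17. Pax9, which is needed for tooth formation, had ratios of -1.88 at PN2 and -4.29 at E17, and Lhx6 -2.07 and -2.36. The 3 genes on the follicle side were Inhba, which encodes the activin A subunit (2.56), Lhx8 (1.29) and Prrx1 (1.28). Further transcription factors of the follicle were Foxc2, with 893 in DF PN2 and 87.3 in P PN2, Foxc1 (1.76), Tbx15 (2.27) and Alx4 (3.73), and Tbx3 (-2.48) and Sox11 (-1.50) were lower there. With dim signals raised to the 5th percentile, Tbx15 was at 1.83 and Alx4 at 3.23. The Fox, Sox and Tbx list had 7 of 16 higher and 2 lower. Of 13 Irx, Meis and other patterning genes 2 were higher and 3 lower, with Irx3 at 1.72 and Shox2 at -1.30, and Irx5 at -0.36 beside 3.25 or more at E17, where its papilla signal was under the 5th percentile. Foxf2 stood at 1.23 at PN2 and -1.82 at E17.

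Genes of the hard tissues were split. Of 13 measured odontoblast and dentin genes, 4 were higher and 6 lower. Their median was -0.10 and became 0.08 with median centring, 0.25 in the deposited ratios and 0.34 without normalisation. Smpd3, a sphingomyelinase needed for dentin and bone mineral, had 780.0 in DF PN2 and 3678 in P PN2. Notum, which inactivates Wnt ligands, had 135 in DF PN2, 1425 in P PN2, 130.4 in DF E17 and 355 in P E17, and Klf4, a transcription factor of differentiating odontoblasts, had 1137 in DF PN2, 5077 in P PN2, 848 in DF E17 and 1216 in P E17. Panx3, a channel protein of odontoblasts and bone cells, had a ratio of -1.92 at PN2 and 0.91 at E17. Sparc (1.95) and the pyrophosphate transporter gene Ank (2.11) were higher in the follicle. Bone sialoprotein (Ibsp), which is made by osteoblasts and cementoblasts, had 20649 in DF PN2, 636 in P PN2, 15085 in DF E17 and 205 in P E17. It was one of 3 higher genes among 12 of osteoblasts and osteocytes, with Creb3l1 (2.21) and the citrate transporter gene Slc13a5 (2.19). Osteocalcin (Bglap) stood at -0.87 at PN2 and 0.92 at E17, and Sp7, the osteoblast transcription factor, at -0.71 and 0.35. The median of the osteoblast list was -0.30 and its mean 0.28.

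Enamel genes lay on the papilla side, although enamel is made by the epithelium. Of 8 ameloblast genes measured, 1 was higher and 6 were lower (median -1.78), among them Dlx3, which the odontoblast list holds as well. Sp6, an epithelial transcription factor of the tooth that is also active in odontoblasts, had 529.9 in DF PN2, 9018 in P PN2, 294 in DF E17 and 2002 in P E17. The enamel matrix genes had low signals: amelogenin (Amelx) had 103 in DF PN2 and 539 in P PN2 and ameloblastin (Ambn) 32.9 in DF PN2 and 367 in P PN2. Enam had 52.3 in DF PN2 and 117 in P PN2, and apart from Sp6 and Dlx3 Amelx had the brightest PN2 papilla signal of the list. Among 18 general epithelial genes, 4 were higher and 2 lower. The list had a median of -0.04, a mean of 0.10 and a median of 0.29 without normalisation. Itgb4 (1.49) and the tight junction gene Cldn1 (2.48) were higher, Shh (-2.19) and Epcam (-1.60) lower, and the basal keratins Krt5 (0.30) and Krt14 (-0.72) lay within 2-fold. At E17, 8 of these 18 were higher and 0 lower. The part of epithelium in either dissected tissue was not tested. Cartilage genes had 1 of 5 measured higher (Col2a1, 1.60) and 3 lower, with Sox9 at -2.36.

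**Figure D3:**
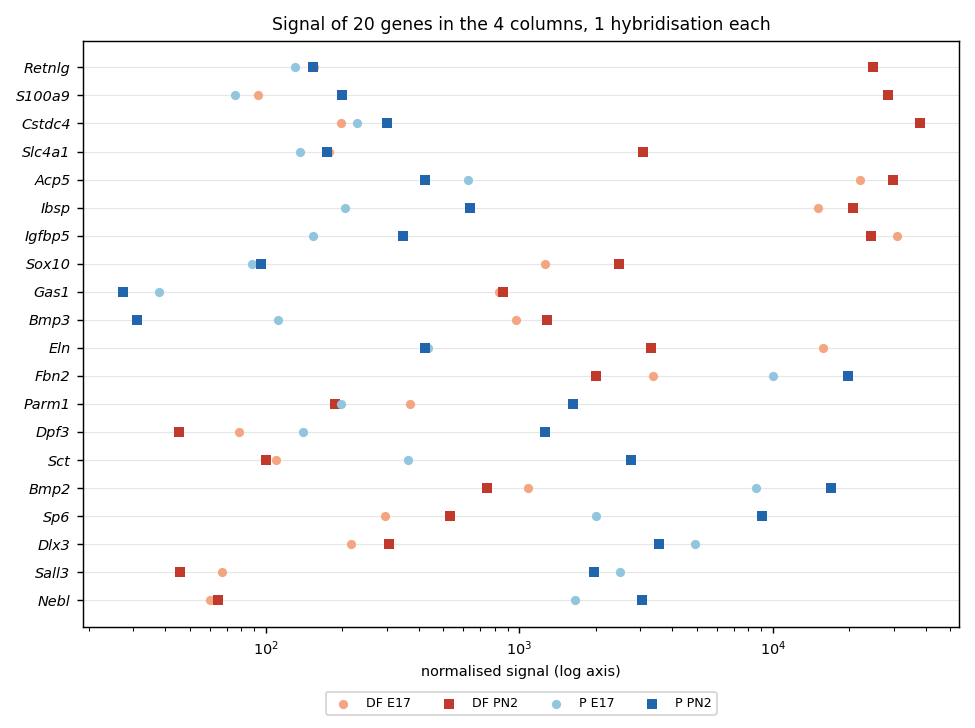
Normalised signal (horizontal log axis) of 20 genes in the 4 columns, 1 hybridisation each: follicle in red shades, papilla in blue, E17 as circles and PN2 as squares. For Retnlg, S100a9, Cstdc4 and Slc4a1 the DF PN2 square stands alone at 3076 or more, for Parm1, Dpf3 and Sct the P PN2 square stands alone at 1256 or more, and Igfbp5, Acp5, Ibsp, Sall3 and Nebl are divided by tissue at both stages.

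Signalling pathways had members on both sides, as did all genes compared, of which 12.8% were higher and 13.4% lower. Of 44 BMP, TGF-beta and activin genes, 10 were higher and 13 lower, and their median of -0.08 became 0.18 without normalisation and 0.09 in the deposited ratios. The ligand gene Bmp2 had 744 in DF PN2, 16904 in P PN2, 1077 in DF E17 and 8593 in P E17. Bmp7 had 211 in DF PN2 and 1667 in P PN2 and Bmp4 78.3 in DF PN2 and 523 in P PN2, so 3 BMP ligands that induce bone and tooth lay on the papilla side. Bmp3 (5.37), Bmp5 (2.00) and Bmp6 (1.60) lay on the follicle side. Of the intracellular and membrane regulators, Id4 (-2.13), Bambi (-1.87), Smad6 (-1.55) and Id1 (-1.09) were lower in the follicle and Id2 (1.32) was higher, while Id3 (-0.70) and Smad7 (-0.10) lay within 2-fold. Of the antagonists, follistatin (Fst) stood at -2.28 and gremlin 1 (Grem1) at 1.57. The receptor genes Tgfbr1 (2.02) and Tgfbr3 (2.33) were higher, and the matrix protein genes Tgfbi (-2.16), Ltbp1 (-1.23) and Ltbp2 (-2.61) were lower, with Ltbp4 at 1.38.

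Of 38 Wnt genes, 7 were higher and 9 lower, and their median of -0.08 became 0.24 without normalisation, beside a mean of 0.02. Ligand genes on the papilla side were Wnt10a (-3.05), Wnt5a (-1.61), Wnt6 (-1.39), Wnt7a (-1.30) and Wnt3a (-1.13), and the follicle side held Wnt2b (2.25). Dkk1, a secreted blocker of the Wnt co-receptor, had 195 in DF PN2 and 1678 in P PN2, and Wif1 stood at -1.15. The R-spondin gene Rspo1, which amplifies Wnt signals, had 1409 in DF PN2, 214 in P PN2, 479 in DF E17 and 824 in P E17, and its receptor gene Lgr5 had 294 in DF PN2 and 43.3 in P PN2. Sostdc1, which inhibits BMP and Wnt, had 14513 in DF PN2, 3929 in P PN2, 13626 in DF E17 and 18371 in P E17, the highest PN2 follicle signal among the Wnt genes. The target gene Axin2 was at 0.87 and Lef1 at 0.60, within 2-fold, beside -0.71 and -1.39 at E17.

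In the FGF list 6 of 27 genes were higher and 5 lower, 3 of the latter by every probe. The mesenchymal ligand genes Fgf3 (-3.76) and Fgf10 (-2.03), which maintain the growth of tooth epithelium, were on the papilla side, and Fgf7 (1.30), Fgf18 (1.55) and Fgf2 (1.12) on the follicle side. The receptor gene Fgfr2 had 2261 in DF PN2 and 448 in P PN2 while Fgfr1 had 5153 in DF PN2 and 10699.8 in P PN2. Dusp6, a phosphatase that FGF signals induce, had 7839 in DF PN2, 1984 in P PN2, 6185 in DF E17 and 11771 in P E17, so the follicle had the higher signal at PN2 and the papilla at E17. Hedgehog genes had 4 of 12 higher and 3 lower. The receptors and binding proteins Gas1 (4.99, or 4.51 with its papilla signal raised to the 5th percentile), Hhip (2.07) and Cdon (1.65) were higher with Dhh. Shh (-2.19) and the pathway targets Ptch1 (585 in DF PN2 and 2565 in P PN2) and Gli1 (749.7 in DF PN2 and 2608 in P PN2) were lower. Notch genes had 3 of 17 higher and 3 lower, not far from the 12.8% and 13.4% of all genes. The receptor genes Notch1 (1.82), Notch2 (1.09) and Notch3 (1.07) were higher and the ligand genes Dll1 (-1.77) and Dll4 (-1.08) and the target Hes5 (-1.06) lower. Of 12 tooth eruption signals, 4 were higher and 0 lower at PN2, against 7 and 2 at E17. The osteoclast growth factor gene Csf1 had a ratio of 0.94 at PN2 and 1.53 at E17, its receptor gene Csf1r 2.90 and 3.13, the osteoclast ligand gene Tnfsf11 0.70 and 1.93, and the decoy receptor gene Tnfrsf11b -0.15 and -0.93.

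**Figure D4:**
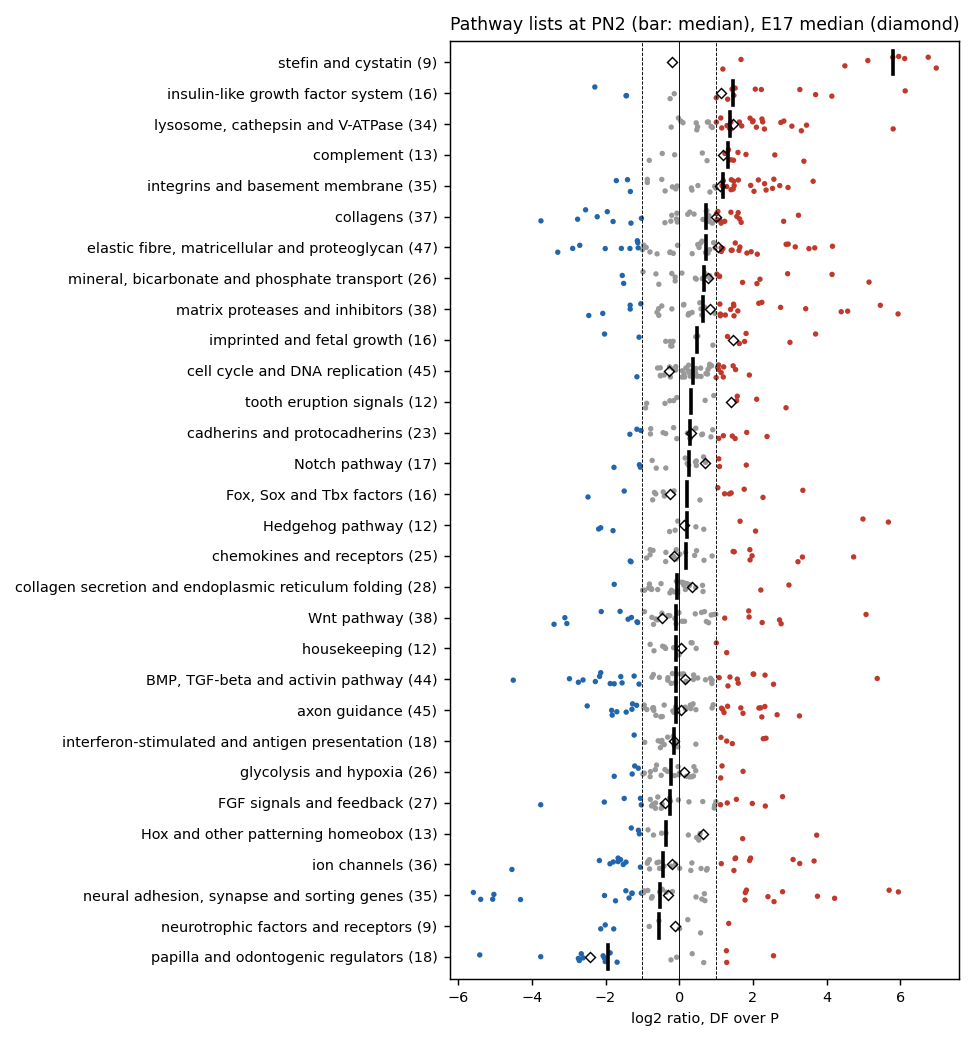
Log2 ratios of DF over P at PN2 for every measured gene of the pathway and function lists (points; red higher and blue lower past 2-fold, grey within), with the list median at PN2 (bar) and at E17 (open diamond). The stefin list stands apart at a median of 5.80 and the odontogenic regulators lie lowest at -1.94, while Wnt, BMP, FGF and Hedgehog genes spread to both sides of medians near 0.

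Adhesion and guidance genes best known from neurons were found far out on both sides. Of 35 neural adhesion, synapse and sorting genes, 10 were higher and 12 lower. Cntn6, a contactin, had 123 in DF PN2, 4103 in P PN2, 239 in DF E17 and 4086 in P E17, and Plppr1, which promotes outgrowth of processes, had 65.7 in DF PN2, 2152 in P PN2, 79.4 in DF E17 and 2096 in P E17. The sorting receptor gene Sorcs3 had 29.4 in DF PN2 and 1414 in P PN2 and Sntg2, a syntrophin, 36.0 in DF PN2 and 1512 in P PN2, with follicle signals under the 5th percentile. On the follicle side, C1ql3 had 6821 in DF PN2, 111 in P PN2, 5594 in DF E17 and 104 in P E17, whereas its relative C1ql1 had 64.6 in DF PN2, 1281 in P PN2, 21.5 in DF E17 and 679.7 in P E17. These sister genes were divided by tissue at both stages, in opposite ways. Chl1 had 2900.2 in DF PN2 and 55.9 in P PN2 and L1cam 1139 in DF PN2 and 61.3 in P PN2, which are related cell adhesion proteins. Of 45 axon guidance genes, 12 were higher, 7 of them by every probe, and 8 lower. Their median was -0.10, and it was 0.20 without normalisation, beside a mean of 0.13. Netrin 1 (Ntn1, 3.26), the class 3 semaphorin gene Sema3g (2.24) and its co-receptor family member Nrp2, with 18308 in DF PN2 and 3956 in P PN2, were higher. Ephb6 (-2.50), Epha7 (-1.84), Unc5d (-1.82) and Robo1 (-1.44) were lower, while Epha5 (2.66) and Epha3 (2.16) were higher. Of neurotrophic genes, 1 of 9 was higher (Ntrk2, 1.34) and 3 lower, and Gfra2, the neurturin receptor, had 298 in DF PN2 and 1306 in P PN2. Of 23 cadherins and protocadherins 6 were higher and 3 lower, 1 of the latter by every probe, led by Pcdh7 (2.38) and Fat4 (1.83).

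Of 36 ion channel genes, 9 were higher and 10 lower, 6 of the latter by every probe. Kcnt2, a sodium-activated potassium channel, had 74.4 in DF PN2, 1734 in P PN2, 45.7 in DF E17 and 185 in P E17. The calcium channel genes Cacna1h (-1.66), Cacna1g (-1.66) and Cacna1c (-1.52) and the sodium channel genes Scn1a (-1.88) and Scn8a (-1.79) lay on the papilla side. The 2 probes of Scn8a gave -3.13 and -0.45, and its ratio was -1.28 with dim signals raised to the 5th percentile. Kcna1, with 1146 in DF PN2 and 90.7 in P PN2, and Kcna2 (3.27), which occur at myelinated axons, lay on the follicle side together with the inward rectifier gene Kcnj2 (1.53). Among 26 transport genes for mineral ions and bicarbonate, 9 were higher and 2 lower. The sodium-proton exchanger gene Slc9b2, known from osteoclasts, had 1567 in DF PN2, 44.1 in P PN2, 1316 in DF E17 and 18.5 in P E17, and the anion exchanger gene Slc4a2 had 3965 in DF PN2 and 1869 in P PN2.

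Among 45 cell cycle genes, 10 were higher, with every probe past 2-fold in 6, and 1 was lower, and their median of 0.38 was 0.60 with median centring and 0.86 without normalisation, where 18 were higher and 0 lower. At E17 the median was -0.29, with 3 higher and 2 lower. Ccnd3, a cyclin of blood cell lineages among others, had 5779 in DF PN2 and 1547 in P PN2, Cdk6 a ratio of 1.53 and the ribonucleotide reductase gene Rrm1 1.46. The proliferation marker gene Mki67 stood at 0.59 and Top2a at -0.10. The lower gene was the cell cycle inhibitor gene Cdkn1a, with 5616 in DF PN2, 12463 in P PN2, 2322 in DF E17 and 875 in P E17, and it was within 2-fold, though still negative, with median centring, in the deposited ratios and without normalisation. Glycolysis and hypoxia genes had 3 of 26 higher and 4 lower, 2 of the latter by every probe. This is near the 12.8% and 13.4% of all genes. Ndrg1 stood at 1.73 and Pgam1 at -1.28, and the list median of -0.22 became 0.08 without normalisation. Among interferon-stimulated and antigen presentation genes, 5 of 18 were higher, 3 of them by every probe, and 1 lower. The list had a median of -0.15 (0.05 without normalisation) and a mean of 0.20. The class II gene H2-Aa (2.35) and Rsad2 (2.28) led them, and Ifit2 stood at -1.22. Skeletal muscle genes had 2 of 11 higher and 2 lower, and Myod1, the myogenic factor, had 2552 in DF PN2 and 7166 in P PN2.

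Between E17 and PN2 the follicle-papilla difference moved by over 2-fold in 1156 genes towards the follicle (8.12%) and in 1302 towards the papilla (9.14%). Among genes that moved past 2-fold with all 4 signals at or above the 5th percentile, the 8 farthest towards the follicle were of the neutrophil and stefin groups, namely Cstdc4, Retnlg, S100a9, Cstdc5, Csta2, Stfa3, Ltf and Stfa1. Xist, left out by that limit, moved further still (given above). Those that moved most towards the papilla were of mixed kinds. Nrk, a kinase gene, had 212 in DF PN2, 215 in P PN2, 816 in DF E17 and 46.2 in P E17, and the potassium channel gene Kcnb2 had 173 in DF PN2, 147 in P PN2, 693 in DF E17 and 42.9 in P E17. In both, the E17 follicle was the highest column and the E17 papilla the lowest. Parm1 had 188 in DF PN2, 1632 in P PN2, 371 in DF E17 and 198 in P E17 and Wfdc1 had 268 in DF PN2, 1111 in P PN2, 441 in DF E17 and 108 in P E17, where the PN2 papilla was the highest column. Rnf180 (1.86 at E17 and -2.15 at PN2), Abi3bp (2.28 and -1.66), Dpf3 (-0.83 and -4.79) and the Y-linked Ssty1 (0.74 and -3.10) completed the 8. Of the 1829 genes higher at PN2, 942 were within 2-fold at E17, 862 were higher and 25 lower. Of the 1908 lower at PN2, 1083 were within 2-fold at E17, 800 were lower and 25 higher. Over all genes compared, 10.5% were higher and 10.1% lower at E17. A gene called at PN2 but not at E17 need not have moved by 2-fold between the stages.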

How the data were processed

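Per the labels, 4 samples are 2-colour Agilent arrays, each with 1 table of signals. The authors deposited linear signal intensity per probe, without a log, per the file headers 2 columns an array named by tissue and stage. The submitters' processing notes name Agilent Feature Extraction 8.5.1.1; background correction and normalisation are not given in the sources used here. A separate value table deposited by the authors holds log10 ratios. For DF PN2 over P PN2 all but 1 of 30146 probes differ from the log10 signal ratio by 1 constant within 0.001 (-0.09 on the log2 scale). How that constant was set is not known.

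Signals were taken as 4 columns, DF and P at PN2 and at E17. Of the file titled P PN2-P E17, 1 column, headed DF E17, was not used. Of 30146 probes, 25962 have 1 symbol in the platform annotation, 0 several and 4184 none, and 25858 matched RefSeq (GRCm38.p6) by gene number. Log2 signals, with no pseudocount, were quantile normalised across columns, then the mean over a gene's probes was taken (python 3.11.15, pandas 2.3.3, numpy 2.4.6). Genes were kept where the highest mean reached 100. No test was possible with 1 hybridisation a side, and the signals carry no depth. The steps were tested on simulated data. Promoter windows are the 250 bases before the first listed RefSeq start of a gene.

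The members and the 52 gene lists were chosen with earlier results of these data known, and support nothing by themselves. The genes named are the 25 highest and 25 lowest past 2-fold with the lower signal at or above the 5th percentile, the 12 highest and lowest among the brightest 5% of genes, the 8 at either end of the change between stages with all 4 signals at or above that percentile, the 3 brightest with opposed probes, and the 4 highest and 4 lowest members of each list, without clone and predicted names. Another 79 genes, such as Lcn2, Dlx5, Col1a1 and Xist, were named after their values were seen, most as defining members of a list. Alternatives were the normalisation, the source of the ratio, the signal limit, dim signals raised to the 5th percentile, and the treatment of probes.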

Additional observations from a re-analysis of the deposited data

Results flagged for a closer look

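Among the genes named, 9 lay past 2-fold on opposite sides of the papilla at the 2 stages, each stage being 1 hybridisation a tissue, and the difference between the stages was not tested. Cdkn1a, Epcam, Wfdc1, Rnf180 and Abi3bp were higher in the follicle at E17, with log2 ratios of 1.41, 1.02, 2.03, 1.86 and 2.28, and lower at PN2, with -1.15, -1.60, -2.05, -2.15 and -1.66. Chil3, Rhd, Foxf2 and the X-linked Xist were lower in the follicle at E17, with -1.30, -1.10, -1.82 and, for Xist, a bound of -6.66 or lower because its E17 follicle signal is under the 5th percentile, and higher at PN2, with 1.03, 3.67, 1.23 and 1.81. Some of these ratios lie close to the limit of 1, beside an SD between probes of 0.77. The closest were Epcam at E17 (1.02) and Chil3 at PN2 (1.03), with 1 probe each. Cdkn1a was within 2-fold at PN2 with median centring, in the deposited ratios and without normalisation. In all genes compared, 25 were opposed in each direction.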

How the results depend on the processing

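No paired analysis was possible because each tissue and stage has 1 hybridisation. Without normalisation, the follicle was higher in 2804 genes at PN2, and at E17 it was higher in 921 and lower in 2685; the change from E17 to PN2 went towards the follicle in 3301 genes and towards the papilla in 480; the 1629 genes lower at PN2 were within 1.5 times of the 1908 reported. Under the other 8 alternatives these 6 totals stayed within 1.5 times. For the demand that every probe pass, this says little, because the 2603 called PN2 genes with 1 probe could not fail it. Of the 1134 with several probes, 530 passed. Of 104 counts of list members, higher and lower for each of 52 lists, 13 moved by more than 1.5 times without normalisation, 13 when every probe had to pass, 8 each by the brightest probe and in the deposited ratios, 5 each with median centring and no signal limit, 4 with a limit of 200 and 2 with quantile normalisation of the 2 columns. Among them, Wnt genes that were higher went from 7 to 12 without normalisation and in the deposited ratios. With a limit of 200 the list median became -1.01 for odontoblasts and 1.25 for eruption signals, and with no limit 0.90 for granulocyte precursors. With no signal limit the median of the cartilage list was 0.14, where the limit left 5 genes. By the brightest probe alone the log2 ratio was -1.29 for Itgb3 and -0.10 for Tek, and 38 other named genes moved by more than 0.77, the SD between probes. With dim signals raised to the 5th percentile, 3 did: Reln 3.35, Atp6v0d2 2.47 and P4ha3 1.95. No median of a list past 1 and no named gene past 1 was on the other side under median centring, no normalisation, quantile normalisation over the 2 columns only or the deposited ratios. Whether the differences would recur in other animals cannot be told from these arrays.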

Other observations

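Of the 4184 probes without a symbol in the platform annotation, 3422 reached the signal limit of 100, and past 2-fold the PN2 follicle was higher in 514 of them and lower in 620. No value of these probes enters the comparisons of genes.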
